A study of Mus musculus with 6 samples.

Results

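Naive CD4+ T cells keep a set of genes on that hold them in lymphoid tissue and out of the cell cycle, and the 9 such genes described here are Tcf7, Lef1, Klf2, S1pr1, Ccr7, Foxo1, Foxp1, Bach2 and Satb1. They were chosen by name, as genes known for naive T cell identity, homing or quiescence, but with earlier results of these data known. All 9 were found among the 11242 entries of the deposited gene-level table, and all 9 passed the expression filter that kept 12925 genes for testing, so no member was left out. The RNA came from CD4+ T cells of C57BL/6 mice aged 8 to 10 weeks, taken as naive cells from spleen and lymph nodes, activated with anti-CD3 and anti-CD28 and grown for 48 h under Th9 conditions, that is with IL-4, TGF-β and an antibody against IFN-γ. The 3 WT samples came from Cul5 fl/fl mice without Cre, and the 3 Cul5 cKO samples from Cul5 fl/fl mice with CD4-Cre. Both genotypes thus carried the floxed allele and received the same stimuli, and no unstimulated cells were analysed here. Cul5 is the scaffold of a ubiquitin ligase complex, and CD4-Cre is driven by the CD4 promoter, so that it deletes in all T cells that have passed through the stage at which CD4 comes on, later CD8+ cells included. The samples belong to a single experiment, and no source used here says whether each sample is 1 mouse, so the p-values measure the spread between these samples, which may in part be technical.

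As background, T cell receptor and cytokine signals switch this set of genes off. FOXO1 is held in the cytoplasm once AKT or SGK1 phosphorylates it, and KLF2, CCR7, IL-7 receptor and L-selectin genes then lose a main activator. KLF2 in turn drives S1PR1, the receptor through which T cells leave lymph nodes. TCF-1 (the product of Tcf7) and LEF-1 are HMG-box factors that bind the same short sequence and hold T cells in a stem-like, less differentiated state. FOXP1 keeps naive cells quiescent, BACH2 represses effector genes by occupying AP-1 sites, and SATB1 organizes chromatin in T cells.

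Levels are given as CPM, counts scaled to a common TMM-adjusted library size. Total counts were 3944803 in WT replicate 3, the shallowest library, and 23111689 to 23454552 in the other 5. Cul5 itself stood at 66.2 ± 2.67 CPM in WT samples against 12.6 ± 1.82 CPM in Cul5 cKO samples (SD, n = 3). The lowest value of any of the 9 genes in any sample was 21.2 CPM (Klf2 in Cul5 cKO replicate 1, from 489 counts), and the fewest counts were 432 (Klf2 in WT replicate 3), both far above the detection floor of 3 counts, which equalled 0.759 CPM in WT replicate 3 and 0.128 to 0.133 CPM elsewhere. Replicate 1 of both genotypes stood apart from replicates 2 and 3, and no label names a batch. For that reason the pooled value of each of the 9 genes is accompanied by its value from replicates 2 and 3 alone (2 samples against 2). The same holds for any gene named from the lists of related genes below whose call differed there.

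Of the 9 genes, all had a log2 fold change (Cul5 cKO over WT) below 0, where 51.2% of all genes tested did. The median of the 9 was -0.51, against -0.01 over all genes. Since the 9 were chosen with earlier results known, these shares describe them and are no test. One gene, Lef1 (1 of 9), fell at a Benjamini-Hochberg adjusted p under 0.05 in edgeR's quasi-likelihood test, where 0.418% of all genes were called lower and 1.03% in either direction. DESeq2 called 2 of the 9, Lef1 and Ccr7, where it called 2.57% of all genes lower. In replicates 2 and 3 alone, 7 of the 9 passed the same threshold, against 4.45% of 13055 genes called lower and 8.83% called in either direction, and the median log2 fold change of the 9 was -0.60. The 2 that did not pass there were S1pr1 and Foxo1. In bulk RNA, fewer cells of a type and less RNA per cell cannot be told apart, so a lower level of these genes may stand for either.

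**Figure D1:**
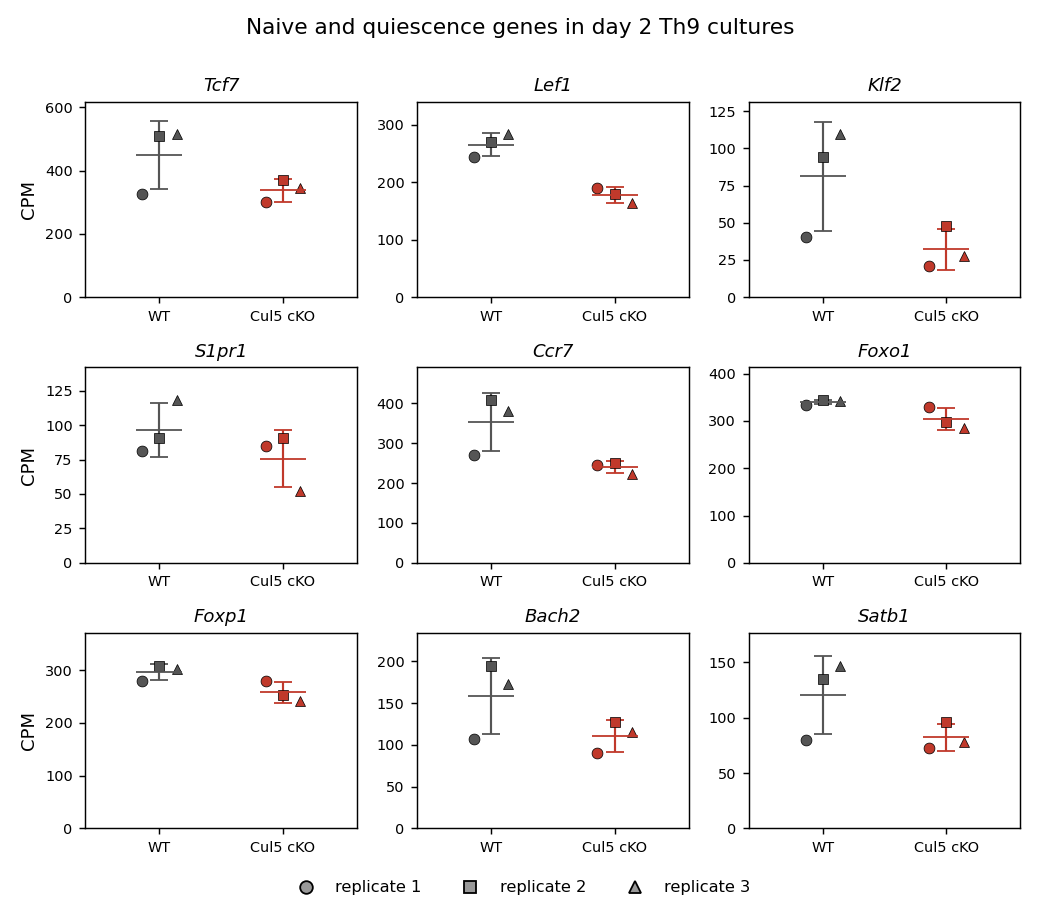
CPM (vertical axes, from 0) of the 9 genes in the 3 WT and 3 Cul5 cKO samples. Symbols mark the replicate, the horizontal line the mean and the bar the SD (n = 3); Lef1, Ccr7 and Foxo1 have every Cul5 cKO sample below every WT sample, and WT replicate 1 is the lowest WT sample in all 9 panels.

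Lef1 (ENSMUSG00000027985), on chromosome 3 of GRCm38 from 131110471 to 131224356 on the plus strand, was the member that edgeR called lower over all samples. Its main transcript, Lef1-203, starts inside the gene, at 131112797, next to a RefSeq start site. Klf2 (ENSMUSG00000055148), on chromosome 8 from 72319033 to 72321656 on the plus strand, had the largest fold change. The windows before the RefSeq starts of Lef1 (131112791) and Klf2 (72319062) are printed because these are the members on which the results below turn; they are RefSeq promoter sequence of GRCm38.p6, plus strand, 5′ to 3′, at chr3:131112541-131112790 for Lef1 and chr8:72318812-72319061 for Klf2, and the capitals mark CCACCC or its reverse complement GGGTGG, the core bound by KLF factors.
Lef1: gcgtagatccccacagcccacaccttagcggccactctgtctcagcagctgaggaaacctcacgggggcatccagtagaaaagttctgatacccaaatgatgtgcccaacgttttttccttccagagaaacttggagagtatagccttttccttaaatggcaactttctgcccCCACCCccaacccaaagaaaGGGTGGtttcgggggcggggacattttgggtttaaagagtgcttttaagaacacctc
Klf2: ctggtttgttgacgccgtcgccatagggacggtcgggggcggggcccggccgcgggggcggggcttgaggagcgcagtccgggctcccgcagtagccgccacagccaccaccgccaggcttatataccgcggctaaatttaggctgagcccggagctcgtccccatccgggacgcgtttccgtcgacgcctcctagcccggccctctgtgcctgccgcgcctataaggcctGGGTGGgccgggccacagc
The Lef1 window holds the letters CCACCC 77 bases and, on the other strand, 57 bases before the RefSeq start, and the Klf2 window holds them once, on the other strand, 19 bases before it. The Klf2 match lies inside the GENCODE transcript Klf2-201, which starts upstream of the RefSeq start, at 72319033. RefSeq promoter windows were matched for 7 of the 9 genes (17 windows), not for S1pr1 and Ccr7. The KLF core was in a window of 5 of those 7 genes and in 28.1% of 32851 mouse promoter windows of the same length. The TCF/LEF core CTTTGA (or TCAAAG) was in a window of 3 of the 7, against 13.8% of all windows. The forkhead core GTAAACA (or TGTTTAC) and the core TGACTCA (or TGAGTCA), shared by AP-1 and BACH factors, were in none of the 17, against 3.17% and 4.46% of all windows. Genes with several start sites have more windows in which to hold a match, and a match describes letters only.

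Lef1 was at 243, 269.7 and 283 CPM in WT replicates 1, 2 and 3 and at 190.4, 179 and 164 CPM in Cul5 cKO replicates 1, 2 and 3. Every Cul5 cKO sample lay below every WT sample, and the Cul5 cKO mean was 66.9% of the WT mean. Its log2 fold change reached -0.58 (SE 0.0845, Benjamini-Hochberg adjusted p = 0.0306, quasi-likelihood test of edgeR, which also gave the adjusted p-values that follow). It was -0.69 (adjusted p = 0.0119) in replicates 2 and 3 alone. The call was lost without WT replicate 2, WT replicate 3, Cul5 cKO replicate 2 or Cul5 cKO replicate 3 (adjusted p = 0.134, 0.145, 0.102 and 0.141), while the log2 fold change stayed between -0.63 and -0.52.

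Tcf7 (ENSMUSG00000000782; chromosome 11, 52252371 to 52283014, minus strand), which encodes the relative of LEF-1, was at 326, 510.4 and 515 CPM in the WT replicates and at 299.6, 369.6 and 344 CPM in the Cul5 cKO replicates. WT replicates 2 and 3 were high, while WT replicate 1 lay among the Cul5 cKO samples, so the groups overlapped. Its log2 fold change was -0.41 (SE 0.176, adjusted p = 0.234) over all samples. In replicates 2 and 3 alone it was -0.52 (adjusted p = 0.0153), and without WT replicate 1 it was -0.60 (adjusted p = 0.0405).

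Foxo1 (ENSMUSG00000044167; chromosome 3, 52268336 to 52353221, plus strand) had the smallest difference. Its values were 335, 344 and 341 CPM in WT and 329, 298 and 285 CPM in Cul5 cKO samples. The groups did not overlap, but Cul5 cKO replicate 1 lay close to WT replicate 1, and its log2 fold change came to -0.16 (SE 0.0676, adjusted p = 0.230). In replicates 2 and 3 alone it was -0.23 (adjusted p = 0.0607). Foxp1 (ENSMUSG00000030067; chromosome 6, 98925338 to 99522721, minus strand) was at 279, 309 and 303 CPM in WT and at 280.4, 253 and 242 CPM in Cul5 cKO samples. Replicate 1 was level between genotypes and the other replicates were not. Over all samples its log2 fold change was -0.20 (SE 0.0759, adjusted p = 0.196), and it was -0.30 (adjusted p = 0.0380) in replicates 2 and 3 alone.

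Klf2 was at 40.1, 93.8 and 109 CPM in WT and at 21.2, 47.5 and 27.7 CPM in Cul5 cKO samples. It varied most between replicates, with a coefficient of variation of 44.8% in WT and 42.7% in Cul5 cKO samples, and Cul5 cKO replicate 2 lay above WT replicate 1. The Cul5 cKO mean was 39.6% of the WT mean. Its log2 fold change was the largest of the 9, at -1.31 (SE 0.416, adjusted p = 0.147), and -1.41 (adjusted p = 0.0293) in replicates 2 and 3 alone. S1pr1 (ENSMUSG00000045092; chromosome 3, 115710433 to 115715072, minus strand), the egress receptor driven by KLF2, was at 80.9, 90.3 and 118 CPM in WT and at 84.6, 90.4 and 52.1 CPM in Cul5 cKO samples. Replicates 1 and 2 of both genotypes were alike, and the difference rested on replicate 3. For S1pr1 the log2 fold change came to -0.33 (SE 0.223, adjusted p = 0.429) over all samples, -0.12 (adjusted p = 0.782) without Cul5 cKO replicate 3, -0.18 (adjusted p = 0.764) without WT replicate 3 and -0.52 (adjusted p = 0.230) in replicates 2 and 3 alone.

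Ccr7 (ENSMUSG00000037944; chromosome 11, 99144196 to 99155077, minus strand) encodes the chemokine receptor that brings naive T cells into lymph nodes. It was at 271, 409 and 382 CPM in WT and at 246, 249.7 and 222 CPM in Cul5 cKO samples, with no overlap between the groups. Its log2 fold change came to -0.56 (SE 0.148, adjusted p = 0.111), and -0.74 (adjusted p = 0.0126) in replicates 2 and 3 alone. DESeq2 called it on all samples at -0.56 (adjusted p = 0.00498), and so did edgeR without WT replicate 1, at -0.72 (adjusted p = 0.0216).

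Bach2 (ENSMUSG00000040270; chromosome 4, 32238804 to 32586108, plus strand) was at 107, 195 and 172 CPM in WT and at 90.2, 127 and 115 CPM in Cul5 cKO samples. Satb1 (ENSMUSG00000023927; chromosome 17, 51736187 to 51833290, minus strand) was at 79.9, 134 and 147 CPM in WT and at 72.7, 96.0 and 78.2 CPM in Cul5 cKO samples. In both genes WT replicate 1 lay within the range of the Cul5 cKO samples and WT replicates 2 and 3 lay above it. The log2 fold change of Bach2 was -0.51 (SE 0.224, adjusted p = 0.247), and -0.60 (adjusted p = 0.0197) in replicates 2 and 3 alone. Without WT replicate 2 that of Bach2 was -0.31, and it was -0.34 with counts scaled from TPM and -0.33 with limma on the authors' log2 CPM. For Satb1 it was -0.54 (SE 0.222, adjusted p = 0.225), and -0.68 (adjusted p = 0.0263) in replicates 2 and 3 alone. A stretch of 152 bases of Bach2 transcripts is 95.4% identical to Dnajc11, which stood at 105 CPM, so reads from that stretch could be shared.

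**Figure D2:**
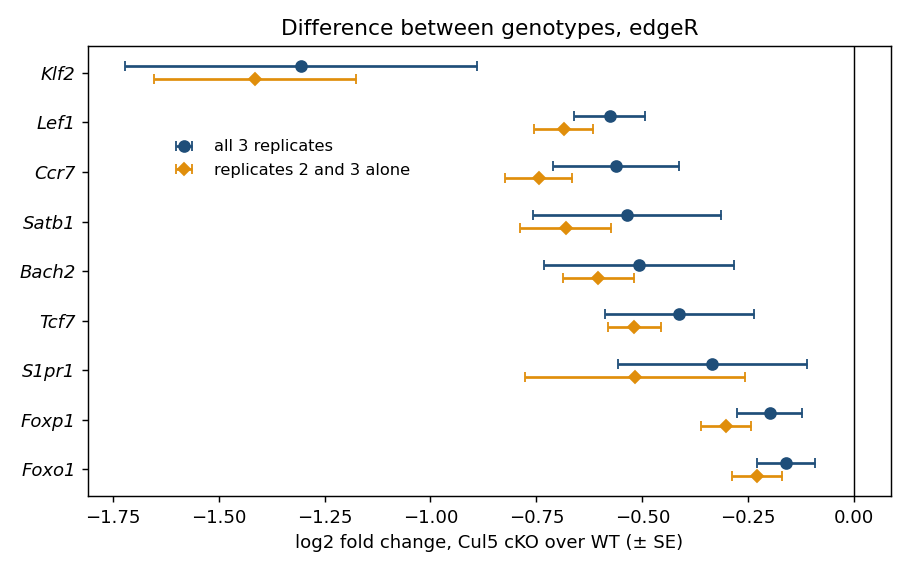
Log2 fold change of Cul5 cKO over WT (horizontal axis) with its SE for each of the 9 genes, from all 3 replicates (circles) and from replicates 2 and 3 alone (diamonds). Every point lies below 0, from -1.31 for Klf2 to -0.16 for Foxo1 over all samples, and each diamond lies further from 0 than its circle.

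Without overlap between the groups, 3 of the 9 genes (Lef1, Ccr7 and Foxo1) were lower in Cul5 cKO samples, against 13.5% of all genes tested (27.5% in either direction), and in replicates 2 and 3 alone 8 of the 9 were, against 32.6%. With 3 samples a group an exact two-sided permutation test cannot give a p below 0.1, which these 3 genes reached. At an unadjusted p under 0.05 edgeR placed 7 of the 9 lower, against 10.4% of all genes lower and 21.3% in either direction. In the authors' own log2 CPM all 9 means were lower in Cul5 cKO samples, and 2 genes, Lef1 and Ccr7, did not overlap.

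The replicates differed in the size of the gap between genotypes. WT replicate 1 was the lowest WT sample for all 9 genes, by a median of 0.55 on the log2 scale against the mean of WT replicates 2 and 3 (differences from -1.34 for Klf2 to -0.03 for Foxo1). Cul5 cKO replicate 1 was the lowest of its group for 4 of the 9, Tcf7, Klf2, Bach2 and Satb1, with differences from -0.77 to 0.30 and a median of 0.07. Between the samples of replicate 1, 1 of each genotype and thus with no test, the log2 difference was below 0 for 7 of the 9 genes and ran from -0.92 (Klf2) to 0.06 (S1pr1), with a median of -0.14. Whether what sets replicate 1 apart has a part in these differences was not tested.

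**Figure D3:**
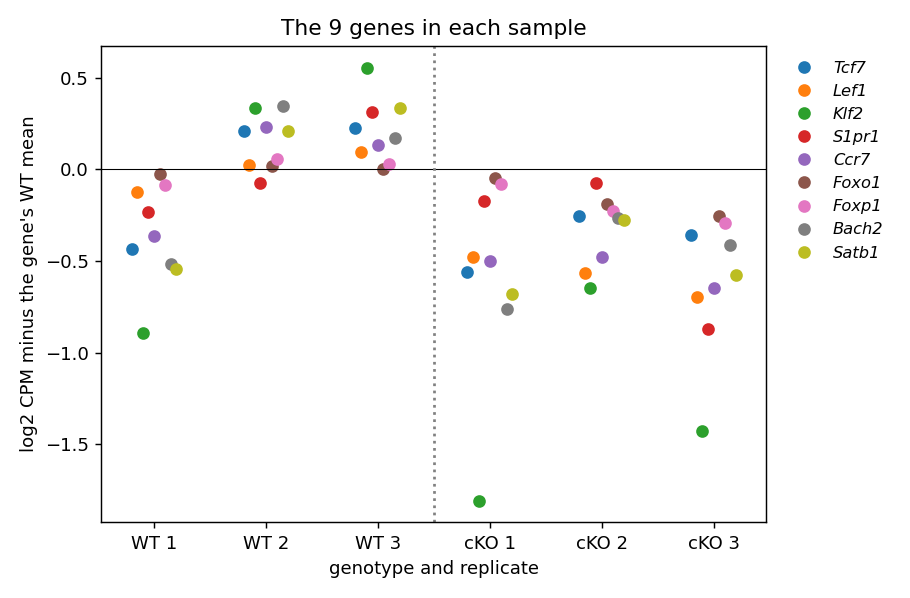
Log2 CPM of each of the 9 genes minus the mean of that gene's 3 WT values (vertical axis) in each sample (horizontal axis, by genotype and replicate). WT replicate 1 lies below 0 for all 9 genes, and every Cul5 cKO value lies below 0, lowest for Klf2.

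Per length, the same 4 genes were highest in both genotypes. On the TPM scale, which divides counts by transcript length, the WT means in descending order were Tcf7 at 291 ± 71.6, Ccr7 at 273 ± 60.9, Lef1 at 170.3 ± 10.3, Foxp1 at 154 ± 19.5, Klf2 at 67.3 ± 29.7, Foxo1 at 54.4 ± 3.11, Satb1 at 48.0 ± 13.6, S1pr1 at 46.0 ± 7.66 and Bach2 at 32.2 ± 11.4 (SD, n = 3). In this order Ccr7 and Lef1, and Foxp1 and Klf2, did not overlap, while each other pair of neighbours did. In Cul5 cKO samples Klf2 stood eighth, at 26.5 ± 11.3 TPM (SD, n = 3), below Foxo1 at 48.7 ± 4.32, S1pr1 at 36.2 ± 10.2 and Satb1 at 32.2 ± 5.41 and above Bach2 at 24.4 ± 3.59. Its range overlapped those of S1pr1, Satb1 and Bach2. Tcf7 at 218 ± 21.1, Ccr7 at 183 ± 14.1, Foxp1 at 128 ± 12.3 and Lef1 at 114 ± 10.4 TPM were again the 4 highest.

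Transcript use was compared because several of these genes have isoforms with different functions, such as the short and long forms of TCF-1 and LEF-1. Which transcripts encode the short and which the long forms was not examined, so the shares below give no measure of those forms. Klf2, S1pr1, Ccr7 and Foxo1 each have a single transcript in the files. Tcf7-201 held 66.7% ± 2.30 (SD, n = 3) of the counts of Tcf7 in WT and 64.6% ± 1.29 in Cul5 cKO samples, and Tcf7-202 held the rest. Lef1-203 held 65.9% ± 2.48 of the counts of Lef1 in WT and 68.7% ± 3.54 in Cul5 cKO samples. Bach2-202 held 54.7% ± 3.46 and 48.8% ± 4.66, Foxp1-206 29.8% ± 4.32 and 28.7% ± 2.70, and Satb1-208 26.8% ± 0.982 and 29.9% ± 2.20. In these 5 genes the groups overlapped for the main transcript. Of the transcripts holding at least 5% of a gene's counts, ENSMUST00000140979 of Satb1 was the one with no overlap, at 9.32% ± 0.816 in WT and 6.42% ± 0.679 in Cul5 cKO samples (exact permutation p = 0.1, the smallest possible). Single-end reads of 50 bases leave the split between overlapping isoforms to kallisto's estimate.

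The genes that act around the 9 were counted in lists, some of which share members and which were chosen with results of these data known. Over all samples edgeR called 2 of the listed genes, against 133 of all 12925 genes tested, and DESeq2 called 15, against 693. The number of genes tested is given with each list. Of edgeR's 2, none stayed without WT replicate 2, WT replicate 3, Cul5 cKO replicate 1 or Cul5 cKO replicate 3, and the count was 1 without Cul5 cKO replicate 2. It was 11 when WT replicate 1 was left out, where 316 of all genes were called. The counts of each list stand beside these shares of all genes. Of all genes tested, 51.2% were below 0. At an unadjusted p under 0.05, 10.4% were lower and 21.3% differed in either direction. In replicates 2 and 3 alone, 4.45% were called lower and 8.83% in either direction. For naive T cell receptors and surface genes, 10 of 13 tested genes had a log2 fold change below 0, none passed the threshold in either direction (4 lower and 0 higher at an unadjusted p under 0.05), and the median was -0.38. The extremes were Cd27, a costimulatory receptor of naive and memory cells, at 27.7 ± 12.3 CPM in WT samples against 11.9 ± 5.81 CPM in Cul5 cKO samples (SD, n = 3; log2 fold change -1.19, adjusted p = 0.199), and Cd69, the early activation marker that opposes S1PR1 at the cell surface, at 18.8 ± 9.38 and 21.0 ± 9.98 CPM (0.17, adjusted p = 0.881). Of the 13, 5 passed in replicates 2 and 3 alone, all lower, Cd27 among them (-1.26, adjusted p = 0.0297). The median was -0.20 without WT replicate 3.

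Among quiescence and brake genes, 18 of 23 were below 0 and none passed (9 lower and 1 higher at an unadjusted p under 0.05), with a median of -0.29. Slfn1, a Schlafen gene tied to quiescence, was at 3.86, 11.1 and 13.3 CPM in WT and at 2.10, 5.49 and 2.88 CPM in Cul5 cKO samples (log2 fold change -1.38, adjusted p = 0.193). At the other end, Klf6 was at 97.7 ± 4.02 CPM in WT samples against 132 ± 14.7 CPM in Cul5 cKO samples (SD, n = 3; 0.43, adjusted p = 0.0818). Of the 23, 12 passed in replicates 2 and 3 alone, all lower, against 4.45% of all genes called lower there. Among the 12 were Slfn1 (log2 fold change -1.52, adjusted p = 0.0428), Klf3, a relative of Klf2 (log2 fold change -1.18, adjusted p = 0.00875), and Cdkn1b, which encodes the cell cycle inhibitor p27 (-0.72, adjusted p = 0.0134). Klf3 and Cdkn1b were named after their values were seen. Over all samples Klf3 had a log2 fold change of -1.06 (adjusted p = 0.182), and its groups overlapped. That of Cdkn1b was -0.61 (adjusted p = 0.0506), without overlap.

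For partners and relatives of the member factors, 12 of 20 were below 0 and none passed (3 lower and 2 higher at an unadjusted p under 0.05), with a median of -0.04, close to that of all genes. Foxo4, a relative of Foxo1, was at 39.8 ± 7.89 CPM in WT samples against 26.6 ± 8.94 CPM in Cul5 cKO samples (SD, n = 3; log2 fold change -0.57, adjusted p = 0.239), and Maff, a small MAF partner of BACH factors, at 7.50 ± 2.44 and 11.3 ± 3.28 CPM (0.63, adjusted p = 0.301). Of the 20, 4 passed as lower, Foxo4 among them (-0.71, adjusted p = 0.0422), and 2 as higher in replicates 2 and 3 alone.

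Of the genes that control FOXO1 activity, 6 of 13 were below 0, with none past the threshold (0 lower and 3 higher at an unadjusted p under 0.05) and a median of 0.01. Sgk1, one of the kinases that inactivates FOXO1, was at 329, 182 and 208 CPM in WT and at 668, 414 and 411 CPM in Cul5 cKO samples. All Cul5 cKO samples lay above all WT samples, with a log2 fold change of 1.05 (adjusted p = 0.109), and of 1.09 (adjusted p = 0.00682) in replicates 2 and 3 alone. Pik3cd, the catalytic PI3K subunit of lymphocytes, was at 307 ± 53.6 CPM in WT samples against 247 ± 27.1 CPM in Cul5 cKO samples (SD, n = 3; -0.31, adjusted p = 0.256). Without overlap between the groups, 4 of the 13 were higher (Sgk1, Akt1, Inpp5d and Phlpp2) and 0 lower in Cul5 cKO samples. Over all genes tested, 27.5% did not overlap in either direction and 13.5% were lower without overlap. Of the 13, 2 passed in replicates 2 and 3 alone, both higher: Sgk1 and Akt1, a kinase of FOXO1 named after its values were seen (0.27, adjusted p = 0.0439). Over all samples the log2 fold change of Akt1 was 0.26 (adjusted p = 0.0694). Inpp5d and Phlpp2, which encode phosphatases, had log2 fold changes of 0.20 and 0.19 over all samples (adjusted p = 0.208 and 0.329). They too were named after their values were seen. The list thus mixes kinases that act on FOXO1 with other regulators, and its counts give no direction for FOXO1 activity. Of FOXO1 target genes beside the 9, 10 of 13 were below 0, with a median of -0.37, which was -0.20 without WT replicate 3 and -0.56 in replicates 2 and 3 alone. One passed: Ccng2, which encodes cyclin G2, was at 33.7, 46.2 and 44.5 CPM in WT and at 20.8, 22.2 and 19.1 CPM in Cul5 cKO samples, and it fell by 0.99 on the log2 scale (adjusted p = 0.0245). Pik3ip1, an inhibitor of PI3K, was at 10.8, 21.2 and 26.6 CPM in WT and at 5.95, 10.2 and 7.20 CPM in Cul5 cKO samples (log2 fold change -1.28, adjusted p = 0.112), and Gadd45a, a stress response gene, at 5.12 ± 1.67 and 7.13 ± 1.38 CPM (SD, n = 3; 0.45, adjusted p = 0.382). Of these 13, 7 passed in replicates 2 and 3 alone, all lower, Pik3ip1 among them (-1.42, adjusted p = 0.0198), against 4.45% of all genes called lower.

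Genes that BACH2 is known to hold down had the opposite balance, with 8 of 10 above 0 and a median of 0.50. The median was 0.35 with a minimum of 10 counts in every sample, and several of the 10 were barely expressed. Prdm1, Il4, Il13 and Il1rl1 had WT means of 1.05, 0.556, 1.54 and 1.11 CPM and Cul5 cKO means of 0.904, 1.70, 4.90 and 3.70 CPM. These genes were named for their low levels, after their values were seen. For Il4 and Il13 the log2 fold changes were 1.57 and 1.71 over all samples (adjusted p = 0.122 and 0.238). They were 1.86 and 1.59 (adjusted p = 0.0451 and 0.0349) in replicates 2 and 3 alone. Il4 in WT replicate 3 was below 3 counts, and Il1rl1 was high in Cul5 cKO replicate 2 alone (8.77 CPM). Il12rb1, a chain of the IL-12 and IL-23 receptors, rose from 29.0, 28.0 and 27.5 CPM in WT to 45.1, 37.3 and 45.9 CPM in Cul5 cKO samples (log2 fold change 0.60, adjusted p = 0.0435), the only one of the 10 that passed. Il5, a Th2 cytokine, was near the floor too, at 0.427, 2.08 and 0.506 CPM in WT, the last of these below 3 counts, and at 0.955, 5.65 and 6.58 CPM in Cul5 cKO samples (1.97, adjusted p = 0.229). Gata3, the Th2 master regulator, was at 74.9 ± 3.38 CPM in WT samples against 67.0 ± 2.87 CPM in Cul5 cKO samples (SD, n = 3; -0.16, adjusted p = 0.232). Of T cell activation genes, 11 of 16 were above 0 and none passed (3 higher and 1 lower at an unadjusted p under 0.05), with a median of 0.16. Their extremes were Egr2, an early T cell receptor target, at 31.7 ± 16.9 and 52.6 ± 27.4 CPM (SD, n = 3; 0.74, adjusted p = 0.475), and Tnfrsf9, which encodes 4-1BB, at 75.2 ± 13.9 and 56.5 ± 6.51 CPM (-0.41, adjusted p = 0.181). In replicates 2 and 3 alone 5 of the 10 BACH2 list genes passed, all higher, Il5 among them (1.92, adjusted p = 0.0496), against 8.83% of all genes called in either direction. Of the 16 activation genes, 3 passed there as higher, Egr2 among them (0.70, adjusted p = 0.0404), and 1 as lower, Tnfrsf9 (-0.52, adjusted p = 0.0450).

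**Figure D4:**
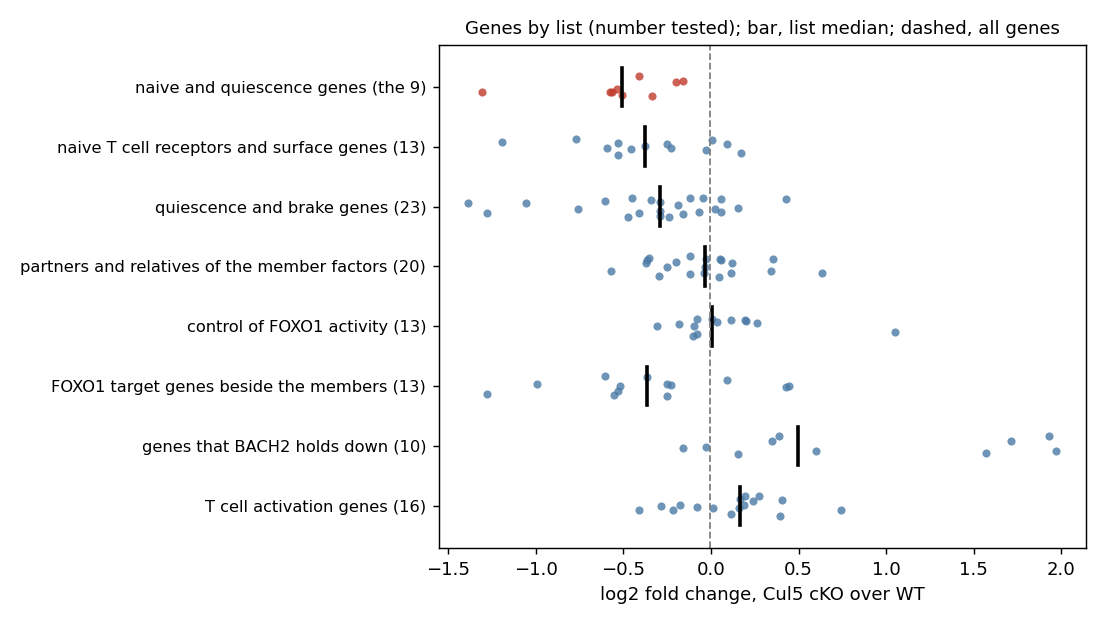
Log2 fold change of Cul5 cKO over WT (horizontal axis) of each tested gene, 1 point a gene, for the 9 genes (red) and the 7 lists (blue), with the median of each as a bar and that of all genes as a dashed line at -0.01. The 9 genes have a median of -0.51, the FOXO1 target genes one of -0.37 and the genes that BACH2 holds down one of 0.50.

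The genes whose log2 CPM followed that of Klf2 most closely over the 6 samples, among 11614 genes, were Mib2, Slfn1 and 4930523C07Rik, each with a Pearson r of 0.997. All 6 samples share the split by genotype and the position of replicate 1, so the likeness is a description only.

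Markers of the labelled cell type were high, and those of others were low but not absent. The 5 CD4 T cell markers, Cd4 and the CD3 and T cell receptor genes, summed to 1064 to 1135 CPM in WT and 972 to 1047 CPM in Cul5 cKO samples. Every Cul5 cKO sum thus lay below every WT sum. Cd3d, Cd3e and Cd3g were each lower without overlap between the groups, against 13.5% of all genes tested. Cd4 and Trac overlapped, and none of the 5 was called. The 2 CD8 markers summed to 5.75 to 6.54 and 4.30 to 11.7 CPM, the 6 myeloid markers to 38.1 to 39.8 and 37.4 to 49.8 CPM, most of it Cst3, and the 4 NK cell markers to 4.59 to 9.90 and 6.23 to 13.3 CPM, with Ncr1 at 0 in every sample. The 5 B cell markers used, most of the sum being Ighm, gave 111, 80.4 and 81.1 CPM in WT and 42.2, 34.8 and 109 CPM in Cul5 cKO samples. Cd79a, Cd79b, Ms4a1 and Pax5 were each highest in Cul5 cKO replicate 3, where Pax5 was at 8.63 CPM, against 0.0869 to 1.54 CPM in the other samples. B cells also express Klf2, S1pr1, Ccr7, Foxo1, Foxp1 and Bach2. Without Cul5 cKO replicate 3, the sample highest in those markers, the log2 fold changes of these were -1.21, -0.12, -0.51, -0.11, -0.15 and -0.53, and no member passed the threshold. The part of B cell RNA in the differences was not tested.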

How the data were processed

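Poly-A RNA of 3 WT and 3 Cul5 cKO samples was sequenced on a BGIseq500 as single-end reads of 50 bases. Per the submitters' processing notes the authors used kallisto 0.46.2 and edgeR 3.34.0 with GRCm38. The authors deposited estimated counts, not normalized, and TPM for 119414 transcripts per sample, besides a table of log2 CPM per gene (TMM) that also lists their own fold changes and p-values, both not used. Counts were summed by gene in GENCODE vM21 (116640 transcripts matched, 97.7%), rounded and tested in R 4.3.3 with edgeR 4.0.16 (default filter, TMM, quasi-likelihood test). The p-values of the 12925 genes tested were adjusted by the Benjamini-Hochberg method, and the threshold was 0.05. Total counts were 3944803 to 23454552, and the floor of 3 counts covers counting error only. DESeq2 1.42.0 and limma 3.58.1 served for alternatives. The fits were also run on simulated counts with known changes. Those counts had the same dispersion for every gene and no shift of replicate 1, so they say nothing on how that shift affects the calls.

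The 9 genes, the lists and the alternatives were chosen with earlier results of these data known. Named besides them were Cul5, listed genes that were called, the most positive and most negative gene of each list (mean level 1 CPM or more), and the 3 genes most correlated with the member of the largest change. Listed genes outside these rules were named after their values were seen, as stated where they appear. Replicate numbers were not taken as pairs. The correlation of deviations from the group means was 0.450, 0.245 and 0.0306 for replicates 1, 2 and 3. One gene of the B cell marker list is not reported here and was left out of its sum.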

Additional observations from a re-analysis of the deposited data

How the results depend on the processing

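All 162 log2 fold changes of the 9 genes under 18 alternatives lay below 0, from -1.70 to -0.11; calls were less stable. Genes called over all genes, 133, became 693 with DESeq2, 228 with no filter, 60 with counts scaled from TPM, 42 with limma on the authors' log2 CPM, 33 by limma on log2(TPM + 1), 37 by limma on log2(TPM + 0.1), 1688 with replicate 1 as a term, 1153 in replicates 2 and 3 alone, 2753 at an unadjusted p under 0.05, and 2 to 316 with a sample left out. Members called, 1, became 2 with DESeq2, 0 with scaled counts and with each limma fit, 6 with the term, 7 in replicates 2 and 3 alone, 7 at the unadjusted p, and 0 to 4 with a sample left out. Listed genes called, 2, became 15 with DESeq2, 5 with library size alone, 5 with a minimum of 10 counts, 4 with no filter, 0 with scaled counts and each limma fit, 42 with the term, 38 in replicates 2 and 3 alone, and 0 to 11 with a sample left out.

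Lef1 lost its call with scaled counts (-0.53, adjusted p = 0.0583), with limma on the authors' log2 CPM (-0.54) and with limma on TPM at pseudocounts of 1 (-0.57) and 0.1 (-0.58), and ranged from -0.63 to -0.52 with a sample left out. Calls gained with replicate 1 as a term were Tcf7 (-0.39), Klf2 (-1.25), Ccr7 (-0.54), Bach2 (-0.49) and Satb1 (-0.50), and in replicates 2 and 3 alone Tcf7 (-0.52), Klf2 (-1.41), Ccr7 (-0.74), Foxp1 (-0.30), Bach2 (-0.60) and Satb1 (-0.68). DESeq2 added Ccr7 (-0.56). With a sample left out, Tcf7 ranged from -0.60 to -0.31, Ccr7 from -0.72 to -0.44 and Satb1 from -0.76 to -0.38, called without WT replicate 1, while Bach2 ranged from -0.73 to -0.31 and was never called. The medians of FOXO1 targets and of naive receptors ranged from -0.51 to -0.20 and from -0.50 to -0.20. The cause of these changes was not tested.

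Whether the replicate numbers pair the samples was not settled. Cul5 cKO replicates 1 and 2 correlated best with the WT replicate of the same number (0.450 and 0.245). Cul5 cKO replicate 3 correlated best with WT replicate 2 (0.262). With 3 samples a group these correlations cannot exclude pairing or a shared batch. With the replicate block 848 genes, 4 members and 30 listed genes were called, the members being Lef1, Klf2 (-1.27), Ccr7 (-0.54) and Bach2 (-0.48).

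Medians moved by more than their spread for partners and relatives (-0.15 with scaled counts, -0.15, -0.16 and -0.17 with limma on the authors' log2 CPM and on TPM with pseudocounts of 1 and 0.1; -0.11 to -0.027 with a sample left out), for control of FOXO1 activity, which was 0.01 (-0.036 with library size alone, -0.041, -0.052 and -0.061 with the same limma fits, -0.051 in replicates 2 and 3 alone; -0.029 to 0.027 with a sample left out), for FOXO1 targets in replicates 2 and 3 alone (-0.56) and for activation genes with limma on TPM (0.061 for both pseudocounts). Thinning the other libraries to the depth of WT replicate 3 left 132 genes and 1 member called.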
